A study of Mus musculus with 12 samples.

Results

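Nod1, Nod2 and Ripk2 are 3 of the 54532 genes in a table of read counts from mouse macrophages, and 3 of the 14286 genes that had enough counts to be tested. They were picked by symbol, each has a single row, and all 3 passed the filter on low counts. The choice was made with the counts of the same 12 libraries already known, so their levels and differences are given below as a description, with no test. The cells were bone marrow-derived macrophages, which grow from marrow precursors in M-CSF (here 10 ng/ml), from mice 8 weeks old. There were 4 groups of 3 libraries each: LPS-treated Lyz2-Cre-Hdac3f/f cells, LPS-treated Hdac3f/f cells, Lyz2-Cre-Hdac3f/f cells without treatment and Hdac3f/f cells without treatment. LPS, the bacterial outer membrane lipid that Toll-like receptor 4 detects, was given at 500 ng/ml for 4 h. All groups carry the floxed Hdac3 allele, and the Lyz2-Cre-Hdac3f/f cells (Lyz2-Cre below) also carry Cre made from the Lyz2 locus, which is active in myeloid cells and recombines floxed alleles in a share of cells that differs between cultures. The labels do not say whether the libraries of a group come from separate animals, so p-values measure only the spread between these libraries.

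NOD1 and NOD2 are receptors in the cytosol that detect fragments of bacterial peptidoglycan. NOD1 responds to peptides with diaminopimelic acid, and NOD2 responds to muramyl dipeptide. Both recruit the kinase RIPK2 through their caspase recruitment domains (CARDs), and RIPK2 then becomes a scaffold for ubiquitin chains built by XIAP and the linear ubiquitin ligase complex. Those chains bring in the TAK1 and IKK kinases, which switch on NF-kB and MAP kinase signalling. LPS is not a ligand of NOD1 or NOD2.

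In mm10, Nod1 (ENSMUSG00000038058) lies on the minus strand of chromosome 6, from 54923949 to 54972612. Nod2 (ENSMUSG00000055994) lies on the plus strand of chromosome 8, from 88647315 to 88688474. Ripk2 (ENSMUSG00000041135) lies on the minus strand of chromosome 4, from 16122733 to 16163647. Each value is the count of the whole gene, and GENCODE M21 lists 6 transcripts for Nod1, 4 for Nod2 and 2 for Ripk2, so isoforms are not separated. RefSeq promoter sequences of GRCm38.p6, the assembly that mm10 comes from, matched Nod1 and Nod2. They are shown because the levels of both receptor genes moved with LPS and genotype, and each gives the 250 bases before an annotated start, 5′ to 3′ on the gene's strand, with matches to the searched motifs in capitals. The Nod1 stretch is chr6:54972613-54972862 on the minus strand, directly before the gene edge in the table. The Nod2 stretch is chr8:88647097-88647346 on the plus strand, and its start lies 32 bases inside the gene edge in the table.
Nod1: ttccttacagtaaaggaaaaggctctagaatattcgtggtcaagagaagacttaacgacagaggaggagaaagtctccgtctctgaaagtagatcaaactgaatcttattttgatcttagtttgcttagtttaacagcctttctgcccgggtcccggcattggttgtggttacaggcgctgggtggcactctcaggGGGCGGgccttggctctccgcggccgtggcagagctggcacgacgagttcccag
Nod2: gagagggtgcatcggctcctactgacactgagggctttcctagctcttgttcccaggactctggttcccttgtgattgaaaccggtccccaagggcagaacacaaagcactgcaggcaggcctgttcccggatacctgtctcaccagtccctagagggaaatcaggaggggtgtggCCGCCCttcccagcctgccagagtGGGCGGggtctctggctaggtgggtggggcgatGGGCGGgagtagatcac

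The capitals mark GC boxes (GGGCGG on either strand), the motif bound by SP family factors. The Nod1 stretch holds 1, beginning at position -54 counted from the start. The Nod2 stretch holds 3, at -74 on the minus strand and at -50 and -17 on the plus strand. Of 32851 mouse promoter stretches of the same length, 32.7% hold a GC box. The same search on both strands covered the kB consensus of NF-kB (in 3.9% of promoters), AP-1 as TGANTCA (6.75%), the consensus of the interferon-stimulated response element (2.98%), PU.1 as GGAAGT (19.7%) and the TATA box as TATAAA (12.4%). None of these 5 had a match in either stretch shown. A further RefSeq start of Nod1, with chr6:54971662-54971911 before it, has a PU.1 match at -156 on the minus strand. The motifs were chosen after the expression values were seen, and a match is a description of letters only.

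The libraries held 16553432 to 18706990 counts, with 18159 to 21296 genes detected. Levels are counts scaled to a common library size as CPM, with that size adjusted by TMM, an edgeR method that sets the bulk of genes level between libraries. Hdac3 itself averaged 37.1 ± 2.37 CPM with LPS and 34.9 ± 1.75 CPM untreated in Lyz2-Cre cells, against 39.5 ± 1.08 and 38.4 ± 1.86 CPM in Hdac3f/f cells (SD, n = 3 each). It was not called between genotypes (edgeR adjusted p = 0.473 with LPS and 0.352 without), and a count of the whole gene does not measure recombination. Untreated Lyz2-Cre replicate 1 stands apart in Lyz2, the gene that carries Cre, with 31.0 CPM against 5181 and 5637 CPM in replicates 2 and 3. Summed macrophage markers, all 7 of them detected, ran from 11380 to 11680 CPM in Lyz2-Cre cells with LPS, from 10360 to 10650 in Hdac3f/f cells with LPS, from 5414 to 5868 in untreated Lyz2-Cre cells and from 4830 to 5472 in untreated Hdac3f/f cells. Most of the difference between treatments lay in Cd14, with 4721 CPM in Lyz2-Cre and 4045 CPM in Hdac3f/f cells with LPS, against 200 CPM in Lyz2-Cre and 202 CPM in Hdac3f/f cells without. Between genotypes with LPS, 3 of the 7 were called higher and 3 lower in Lyz2-Cre cells, against 15.7% and 16.9% of all tested genes. The lower ones were Itgam (74.3 CPM in Lyz2-Cre against 184 CPM in Hdac3f/f cells), Cd68 (606 against 1091 CPM) and Fcgr1 (559 against 980 CPM). Without LPS, 1 of the 7 was called higher and 1 lower in Lyz2-Cre cells, against 5.12% and 6.66% of all tested genes. In bulk RNA such as this, fewer cells of a type and less RNA per cell cannot be told apart.

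The first question was where the mRNA of the 2 receptors and their kinase stood in each group. LPS-treated cells held more of all 3 than untreated cells in both genotypes. With LPS the levels of all 3 were lower in Lyz2-Cre than in Hdac3f/f cells, while without LPS Nod1 and Nod2 were higher in Lyz2-Cre cells. Nod1 moved least with LPS in Lyz2-Cre cells and differed most between the genotypes with LPS.

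Nod1, the receptor for diaminopimelic acid peptides, had 192, 169 and 164 CPM in Lyz2-Cre libraries with LPS, 344, 404 and 412 CPM in Hdac3f/f libraries with LPS, 69.8, 77.9 and 79.7 CPM in untreated Lyz2-Cre libraries, and 65.3, 58.9 and 61.2 CPM in untreated Hdac3f/f libraries. All 3 libraries of each group lay apart from those of every other group, in the order LPS-treated Hdac3f/f, LPS-treated Lyz2-Cre, untreated Lyz2-Cre, untreated Hdac3f/f. The narrowest gap was between the untreated groups, where the lowest Lyz2-Cre library had 69.8 CPM and the highest Hdac3f/f library 65.3 CPM. Scaled by library totals in place of TMM, these libraries change order, so the untreated groups overlap. The group means were 175 ± 14.4 CPM in Lyz2-Cre cells with LPS, 387 ± 37.3 CPM in Hdac3f/f cells with LPS, 75.8 ± 5.30 CPM in untreated Lyz2-Cre cells and 61.8 ± 3.23 CPM in untreated Hdac3f/f cells (SD, n = 3 each). Each Nod1 value rests on 1197 to 5682 counts.

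Nod2, the muramyl dipeptide receptor, had 95.0, 89.2 and 93.9 CPM in Lyz2-Cre libraries with LPS, 142, 151 and 148 CPM in Hdac3f/f libraries with LPS, 16.6, 15.2 and 14.7 CPM in untreated Lyz2-Cre libraries, and 10.3, 9.10 and 8.74 CPM in untreated Hdac3f/f libraries. The groups followed the order seen for Nod1, again without overlap, and the untreated genotypes stood further apart in relative terms. Their nearest libraries had 14.7 CPM in Lyz2-Cre and 10.3 CPM in Hdac3f/f cells. The means were 92.7 ± 3.06 CPM in Lyz2-Cre cells with LPS, 147 ± 4.23 CPM in Hdac3f/f cells with LPS, 15.5 ± 0.989 CPM in untreated Lyz2-Cre cells and 9.39 ± 0.828 CPM in untreated Hdac3f/f cells (SD, n = 3 each). The untreated values rest on few reads, 296 to 342 counts in Lyz2-Cre and 171 to 238 counts in Hdac3f/f libraries.

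Ripk2, the kinase that both receptors recruit, had 46.2, 47.5 and 46.3 CPM in Lyz2-Cre libraries with LPS, 70.5, 59.7 and 70.0 CPM in Hdac3f/f libraries with LPS, 8.36, 8.50 and 8.61 CPM in untreated Lyz2-Cre libraries, and 7.85, 8.61 and 5.88 CPM in untreated Hdac3f/f libraries. In TMM-scaled CPM the LPS-treated groups were separate from each other and from the untreated ones, but the untreated genotypes overlapped. Scaled by library totals, the LPS-treated genotypes overlapped too. The lowest value, 5.88 CPM in untreated Hdac3f/f replicate 3, rests on 115 counts. The means were 46.7 ± 0.718 CPM in Lyz2-Cre cells with LPS, 66.7 ± 6.06 CPM in Hdac3f/f cells with LPS, 8.49 ± 0.125 CPM in untreated Lyz2-Cre cells and 7.45 ± 1.41 CPM in untreated Hdac3f/f cells (SD, n = 3 each).

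**Figure D1:**
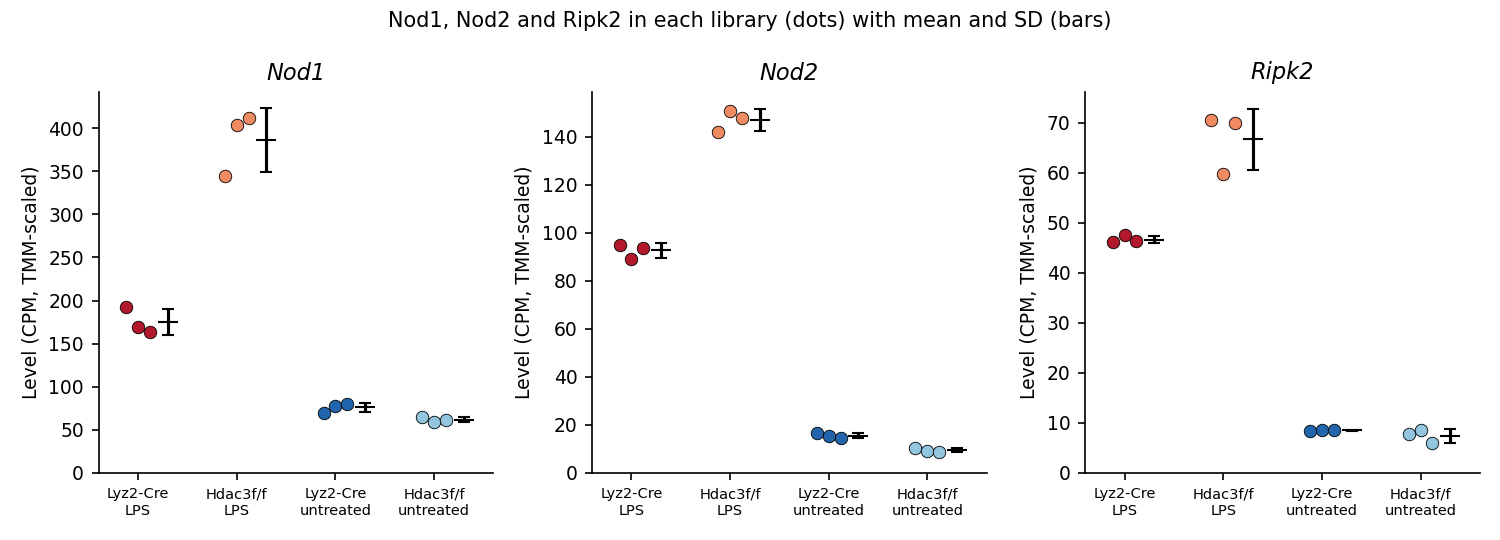
Nod1, Nod2 and Ripk2 in each library, in TMM-scaled CPM, with dots for libraries and bars for the mean and SD of the 3 libraries of a group. For all 3 genes the Lyz2-Cre libraries with LPS sit below the Hdac3f/f libraries with LPS, and the untreated groups overlap only for Ripk2.

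The complete order, with LPS-treated Hdac3f/f above LPS-treated Lyz2-Cre above untreated Lyz2-Cre above untreated Hdac3f/f and no overlap at any step, was shown by Nod1 and Nod2 and by 232 of 14286 tested genes (1.62%). The looser pattern, with Lyz2-Cre above Hdac3f/f libraries when untreated and below them with LPS, was shown by 344 tested genes (2.41%). Both patterns were taken in TMM-scaled CPM, and with library totals Nod1 shows neither, because its untreated genotypes then overlap. Since the genes were chosen with these values known, nothing is read from those shares.

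For the LPS response, all 3 libraries with LPS lay above all 3 untreated ones for 3 of 3 genes in Lyz2-Cre cells, where 30.9% of tested genes did the same, and for 3 of 3 genes in Hdac3f/f cells, where 28.3% did. In Lyz2-Cre cells the log2 fold changes with LPS were 1.21 ± 0.10 for Nod1, 2.58 ± 0.10 for Nod2 and 2.46 ± 0.13 for Ripk2 (edgeR estimate ± SE, n = 3 each), which are 2.31-fold, 5.98-fold and 5.50-fold. In Hdac3f/f cells they were 2.65 ± 0.11 for Nod1, 3.97 ± 0.10 for Nod2 and 3.16 ± 0.14 for Ripk2, which are 6.26-fold, 15.6-fold and 8.94-fold. Scaling by library totals lowered the log2 values in Lyz2-Cre cells to 0.82 for Nod1, 2.19 for Nod2 and 2.07 for Ripk2, and those in Hdac3f/f cells to 2.0 for Nod1, 3.32 for Nod2 and 2.52 for Ripk2, and moved the median of all tested genes to -0.46 in Lyz2-Cre and -0.72 in Hdac3f/f cells. Nod2 thus had the largest relative response of the 3 in both genotypes, and Nod1 the smallest. With TMM the median tested gene changed by -0.08 in each genotype.

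Against the range of all tested genes, the rises of Nod2 and Ripk2 were near the top in both genotypes, and that of Nod1 ranked lower in Lyz2-Cre cells. In those cells 10.2% of tested genes had a larger log2 rise than Nod1, 3.09% a larger one than Nod2 and 3.37% a larger one than Ripk2. In Hdac3f/f cells the shares were 4.68% for Nod1, 1.76% for Nod2 and 3.24% for Ripk2.

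For the genotype difference with LPS, the libraries were compared in TMM-scaled CPM. All 3 Lyz2-Cre libraries lay below all 3 Hdac3f/f libraries for 3 of 3 genes, where 22.7% of tested genes did the same. For Ripk2 this separation depends on TMM. Hdac3f/f replicate 2 with LPS held 766 Ripk2 counts of 17930184. Lyz2-Cre replicates 1 and 2 with LPS held 766 of 17699352 and 822 of 18706990, so on library totals the groups overlap. The log2 difference, Lyz2-Cre minus Hdac3f/f, was -1.14 ± 0.10 for Nod1, -0.67 ± 0.09 for Nod2 and -0.52 ± 0.12 for Ripk2 (SE, n = 3 each). The Lyz2-Cre level was 45.3% of the Hdac3f/f level for Nod1, 63.0% for Nod2 and 70.0% for Ripk2. Scaling by library totals in place of TMM left the direction of all 3 and gave -0.87 for Nod1, -0.40 for Nod2 and -0.25 for Ripk2, while it moved the median of all tested genes to 0.29 from 0.02. The authors' deposited table, whose ratio is Hdac3f/f over Lyz2-Cre and so has the opposite sign, gives log2 values of 1.15 for Nod1, 0.67 for Nod2 and 0.52 for Ripk2 with LPS.

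For the genotype difference without LPS, the Lyz2-Cre libraries lay above the Hdac3f/f libraries in TMM-scaled CPM for 2 of 3 genes. These were Nod1 and Nod2, and 20.0% of tested genes did the same. With library totals the Nod1 groups overlap. Untreated Hdac3f/f replicate 1 held 1505 Nod1 counts of 18269900, and untreated Lyz2-Cre replicate 1 held 1436 of 17746817. The log2 difference was 0.29 ± 0.10 for Nod1, 0.72 ± 0.10 for Nod2 and 0.19 ± 0.14 for Ripk2 (SE, n = 3 each). For Ripk2 the value was 0.04 without untreated Hdac3f/f replicate 3, and its groups overlapped, so no direction is given for it. The authors' deposited table, with the opposite sign, gives -0.26 for Nod1, -0.69 for Nod2 and -0.15 for Ripk2.

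The LPS responses of the genotypes were also set against each other, as the response in Lyz2-Cre cells minus that in Hdac3f/f cells. This difference was -1.44 ± 0.15 on the log2 scale for Nod1, -1.39 ± 0.13 for Nod2 and -0.70 ± 0.18 for Ripk2 (SE, n = 3 in each group), against a median of 0.02 over all tested genes. Nod1 and Nod2 had almost the same value, made up differently. For Nod1 most of it lay in the LPS-treated cells (-1.14 with LPS and 0.29 without), and for Nod2 it was divided about evenly (-0.67 with LPS and 0.72 without). Without untreated Lyz2-Cre replicate 1, the library with little Lyz2, the values were -1.49 for Nod1, -1.33 for Nod2 and -0.71 for Ripk2.

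**Figure D2:**
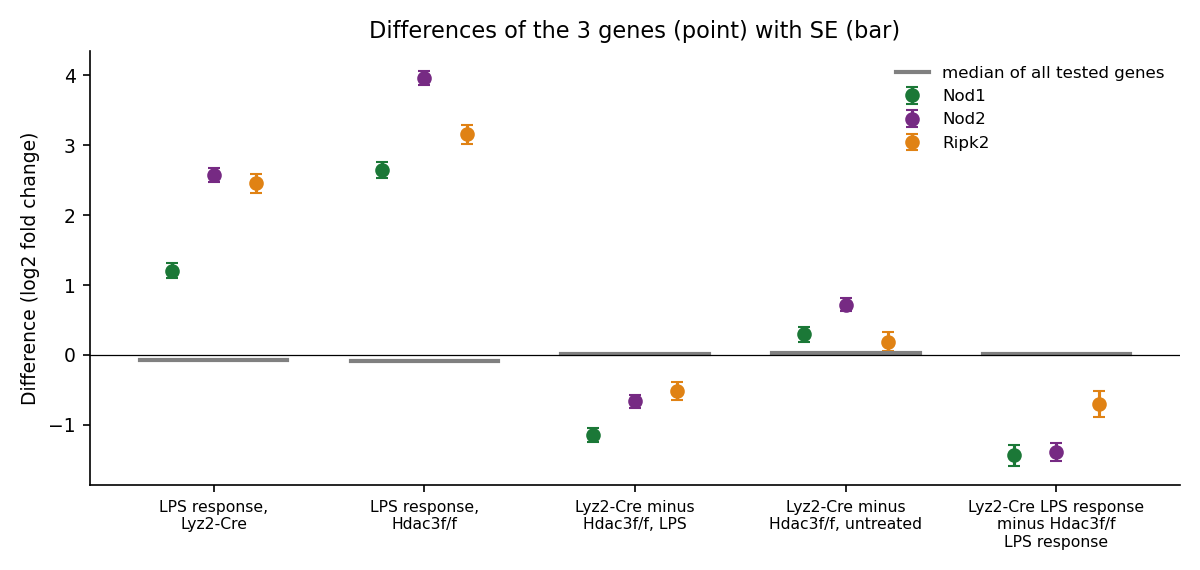
Log2 differences of Nod1, Nod2 and Ripk2 in the 5 comparisons, with bars for the SE of the edgeR estimate. Both LPS responses are positive for all 3 genes, the genotype difference with LPS is negative for all 3, and the difference of the responses runs from -1.44 for Nod1 to -0.70 for Ripk2.

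On the linear scale, the CPM gained with LPS in Lyz2-Cre cells was a different share of that gained in Hdac3f/f cells for each gene. Nod1 gained 99.3 CPM in Lyz2-Cre cells and 325 CPM in Hdac3f/f cells, a share of 30.6%. Nod2 gained 77.2 CPM in Lyz2-Cre cells and 138 CPM in Hdac3f/f cells, a share of 56.1%. Ripk2 gained 38.2 CPM in Lyz2-Cre cells and 59.3 CPM in Hdac3f/f cells, a share of 64.4%.

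Levels of different genes can be compared only per length, for which the deposited FPKM (fragments per kilobase of gene, scaled between libraries by the authors) were used. That scaling followed the TMM factors more closely than the count totals, so it is not a view by library totals. Nod1 averaged 34.0 ± 2.50 FPKM in Lyz2-Cre cells with LPS, 77.7 ± 8.60 FPKM in Hdac3f/f cells with LPS, 14.4 ± 1.06 FPKM in untreated Lyz2-Cre cells and 11.9 ± 0.545 FPKM in untreated Hdac3f/f cells (SD, n = 3 each). Nod2 averaged 18.3 ± 0.546 FPKM in Lyz2-Cre cells with LPS, 29.9 ± 1.27 FPKM in Hdac3f/f cells with LPS, 2.97 ± 0.177 FPKM in untreated Lyz2-Cre cells and 1.83 ± 0.137 FPKM in untreated Hdac3f/f cells. Ripk2 averaged 16.4 ± 0.328 FPKM in Lyz2-Cre cells with LPS, 24.1 ± 2.12 FPKM in Hdac3f/f cells with LPS, 2.90 ± 0.0544 FPKM in untreated Lyz2-Cre cells and 2.58 ± 0.466 FPKM in untreated Hdac3f/f cells. Per length, Nod1 was the most abundant of the 3 in every library.

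The balance between the receptors differed between the groups. The Nod1 to Nod2 ratio of FPKM, which does not depend on the scaling of a library, was 1.86 ± 0.130 in Lyz2-Cre cells with LPS and 2.59 ± 0.186 in Hdac3f/f cells with LPS (SD, n = 3 each). Untreated, it was 4.85 ± 0.628 in Lyz2-Cre and 6.51 ± 0.351 in Hdac3f/f cells. The 4 groups did not overlap in this ratio. Its ranges were 1.73 to 1.99 in Lyz2-Cre cells with LPS and 2.38 to 2.74 in Hdac3f/f cells with LPS. Untreated, they were 4.15 to 5.34 in Lyz2-Cre and 6.24 to 6.91 in Hdac3f/f cells. So Nod2 gained on Nod1 with LPS in both genotypes, and stood higher relative to Nod1 in Lyz2-Cre than in Hdac3f/f cells under either treatment. Nod1 made up 49.5% of the summed FPKM of the 3 genes in Lyz2-Cre cells with LPS, 58.9% in Hdac3f/f cells with LPS, 70.9% in untreated Lyz2-Cre cells and 73.0% in untreated Hdac3f/f cells.

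Over all 12 libraries the centred log2 CPM of Ripk2 lay nearer to Nod2 (root mean square difference 0.33) than to Nod1 (0.52). Its log2 differences lay nearer to Nod2 in the LPS response of Lyz2-Cre cells and the genotype difference with LPS. They lay nearer to Nod1 in the LPS response of Hdac3f/f cells (3.16, against 2.65 for Nod1 and 3.97 for Nod2). The same held for the genotype difference without LPS (0.19, against 0.29 for Nod1 and 0.72 for Nod2). The Ripk2 to Nod2 ratio was 0.897 ± 0.0441 in Lyz2-Cre cells with LPS, 0.809 ± 0.0913 in Hdac3f/f cells with LPS, 0.978 ± 0.0745 in untreated Lyz2-Cre cells and 1.41 ± 0.249 in untreated Hdac3f/f cells (SD, n = 3 each). The LPS-treated genotypes overlapped in it, at 0.867 to 0.948 in Lyz2-Cre and 0.706 to 0.881 in Hdac3f/f libraries, while the untreated ones did not, at 0.895 to 1.04 in Lyz2-Cre and 1.20 to 1.69 in Hdac3f/f libraries. The Nod1 to Ripk2 ratio was 2.08 ± 0.187 in Lyz2-Cre cells with LPS, 3.24 ± 0.523 in Hdac3f/f cells with LPS, 4.95 ± 0.279 in untreated Lyz2-Cre cells and 4.72 ± 0.995 in untreated Hdac3f/f cells. In that ratio the LPS-treated genotypes were apart and the untreated ones overlapped.

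**Figure D3:**
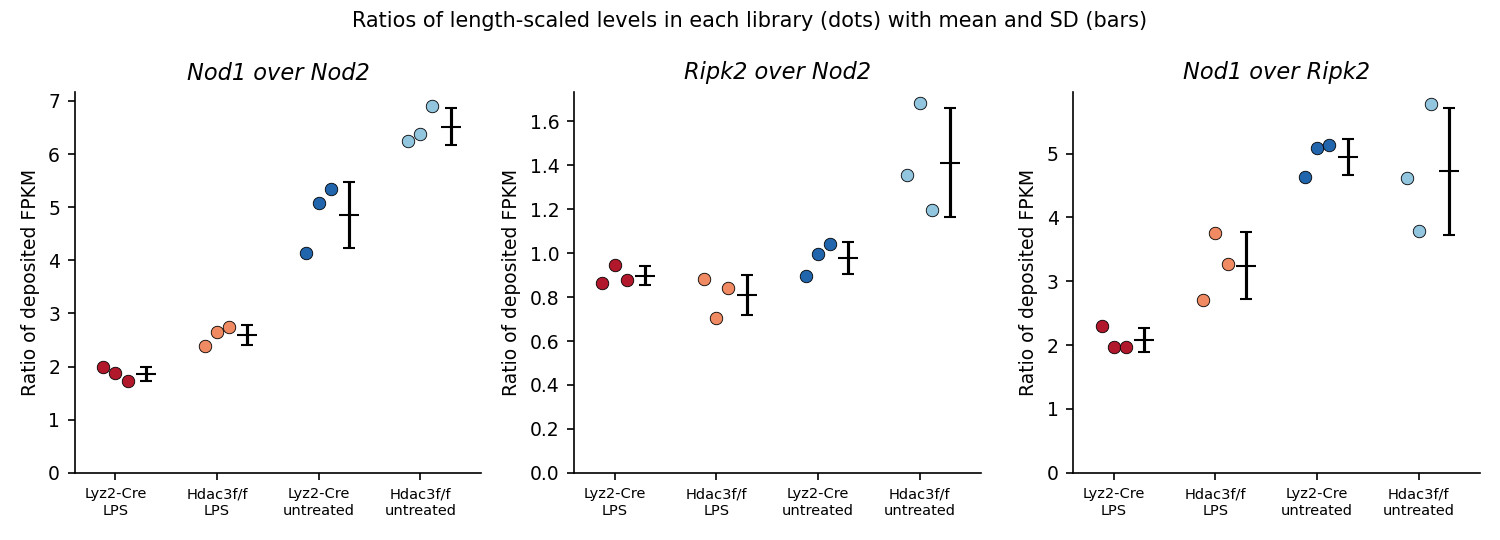
Ratios of deposited FPKM between the 3 genes in each library, with dots for libraries and bars for the mean and SD of a group. The Nod1 to Nod2 ratio separates all 4 groups, from 1.86 in Lyz2-Cre cells with LPS to 6.51 in untreated Hdac3f/f cells.

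Markers of other cell types moved with genotype too, and their part in the differences of Nod1, Nod2 and Ripk2 was not tested. Of all tested genes, 15.7% were called higher and 16.9% lower in Lyz2-Cre cells with LPS, and 5.12% higher and 6.66% lower without. The 6 stromal markers, all detected, summed to 33.2 to 42.7 CPM in Lyz2-Cre against 804 to 1667 CPM in Hdac3f/f libraries with LPS, and to 15.3 to 128 CPM in Lyz2-Cre against 280 to 1345 CPM in Hdac3f/f libraries without. All 5 that were tested were lower in Lyz2-Cre cells under both treatments. The 6 mast cell and basophil markers summed to 96.8 to 157 CPM in Lyz2-Cre against 106 to 148 CPM in Hdac3f/f libraries with LPS, and to 65.6 to 90.8 CPM in Lyz2-Cre against 37.0 to 40.9 CPM in Hdac3f/f libraries without, with 5 of 6 called higher in Lyz2-Cre cells in each. With LPS the remaining one, Hdc, was called lower, at 32.0 CPM in Lyz2-Cre against 78.5 CPM in Hdac3f/f cells. The 8 neutrophil markers summed to 102 to 369 CPM in Lyz2-Cre against 131 to 300 CPM in Hdac3f/f libraries with LPS, and to 56.0 to 160 CPM in Lyz2-Cre against 218 to 381 CPM in Hdac3f/f libraries without. Of the 7 tested, 0 were called between genotypes with LPS, and 2 were called lower in Lyz2-Cre cells without. Ly6g, the defining surface marker of neutrophils, was near the floor in every group. It averaged 0.082 CPM in Lyz2-Cre and 0 CPM in Hdac3f/f cells with LPS, and 0.017 CPM in Lyz2-Cre and 0.014 CPM in Hdac3f/f cells without. The 4 endothelial markers summed to 76.5 to 83.3 CPM in Lyz2-Cre against 81.9 to 105 CPM in Hdac3f/f libraries with LPS, and to 98.2 to 159 CPM in Lyz2-Cre against 29.2 to 76.3 CPM in Hdac3f/f libraries without. Of these 4, 1 was called lower in Lyz2-Cre cells with LPS and 2 were called higher without. Lymphocyte markers summed to 10.9 to 17.4 CPM in Lyz2-Cre against 3.75 to 8.41 CPM in Hdac3f/f libraries with LPS, and to 9.29 to 13.1 CPM in Lyz2-Cre against 5.20 to 7.36 CPM in Hdac3f/f libraries without, and of 4 tested, 3 with LPS and 2 without were called higher in Lyz2-Cre cells. With LPS, 1 of 4 tested dendritic cell markers and the 1 tested erythroid marker were also higher in Lyz2-Cre cells. Markers of dendritic cells, lymphocytes and erythroid cells summed to at most 17.4 CPM in any library, and some had 0 counts in a whole group, such as Ms4a1 in Hdac3f/f cells with LPS, Hbb-bs in untreated Lyz2-Cre cells and Siglech in untreated Hdac3f/f cells.

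The genes with values most like each of the 3 were taken by the root mean square difference of centred log2 CPM over the 12 libraries, among 9675 genes with at least 5 CPM in a group. For Nod1 they were Gpr132, a G protein-coupled receptor (0.14), Tap2, a subunit of the peptide transporter of antigen presentation (0.15), Tor3a, a torsin ATPase (0.16), and Apobec3, a cytidine deaminase that restricts retroviruses (0.17), against a median of 1.11 over all genes. Tap2 had 294 CPM in Lyz2-Cre cells with LPS, 556 CPM in Hdac3f/f cells with LPS, 120 CPM in untreated Lyz2-Cre cells and 95.4 CPM in untreated Hdac3f/f cells. Neither Nod2 (0.72, place 1436) nor Ripk2 (0.52, place 556) was among the genes nearest to Nod1.

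For Nod2 the nearest were Usp18, the protease that removes ISG15 (0.14), Rapgef2, an exchange factor for Rap GTPases (0.16), Tnfrsf8, which encodes CD30 (0.19), and Bcl2a1b, an antiapoptotic gene (0.20), against a median of 1.70. Bcl2a1b has near-identical copies, so its count is uncertain. For Ripk2 they included Zhx2, a transcriptional repressor (0.17), Irak2, a kinase of Toll-like receptor signalling (0.20), and Car13, a carbonic anhydrase (0.20), against a median of 1.46. Usp18 had 510 CPM in Lyz2-Cre cells with LPS, 787 CPM in Hdac3f/f cells with LPS, 89.8 CPM in untreated Lyz2-Cre cells and 51.7 CPM in untreated Hdac3f/f cells. Nod2 and Ripk2 were nearer to each other (0.33) than either was to Nod1, with Ripk2 in place 42 for Nod2 and Nod2 in place 80 for Ripk2.

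**Figure D4:**
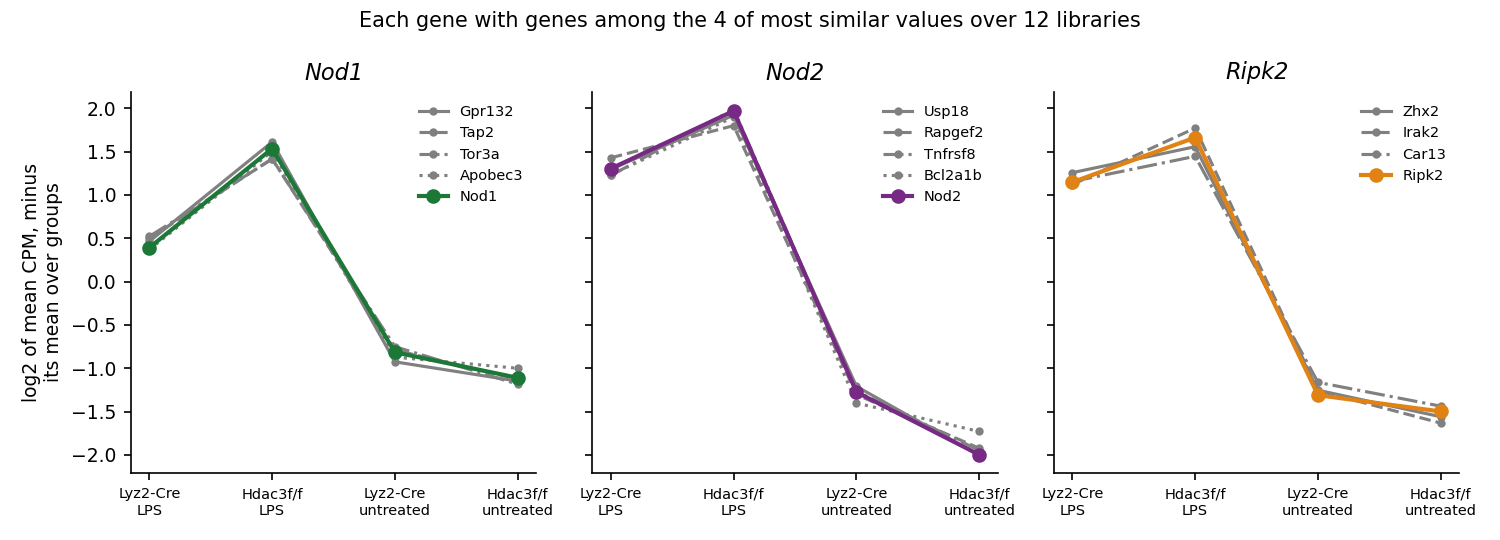
Group means of Nod1, Nod2 and Ripk2 (coloured) and of genes among the 4 nearest to each (grey), as log2 CPM minus each gene's mean over the 4 groups. In each panel the LPS-treated Hdac3f/f cells are highest, and the step down to LPS-treated Lyz2-Cre cells is deepest in the Nod1 panel.

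The genes next to the 3 in the genome were tested in the same fit. Ggct, an enzyme of glutathione breakdown that lies 9968 bases from Nod1 on the same strand, averaged 14.0 CPM in Lyz2-Cre cells with LPS, 20.8 CPM in Hdac3f/f cells with LPS, 5.03 CPM in untreated Lyz2-Cre cells and 4.35 CPM in untreated Hdac3f/f cells. It rose with LPS in Lyz2-Cre (log2 fold change 1.48, edgeR adjusted p = 1.21e-06) and in Hdac3f/f cells (2.25, adjusted p = 1.8e-08), was lower in Lyz2-Cre than in Hdac3f/f cells with LPS (-0.57, adjusted p = 0.00662), and its responses differed between the genotypes (-0.77, adjusted p = 0.027). Znrf2, 30449 bases from Nod1 on the other side, fell with LPS in Lyz2-Cre (-0.64, edgeR adjusted p = 0.00034) and Hdac3f/f cells (-0.83, adjusted p = 2.95e-05). Mturn, beyond Znrf2 and 220098 bases from Nod1, averaged 8.76 CPM in Lyz2-Cre and 3.84 CPM in Hdac3f/f cells with LPS, and was higher in Lyz2-Cre cells (1.19, edgeR adjusted p = 0.00981). Its LPS response was 1.64 in Lyz2-Cre cells (edgeR adjusted p = 0.000431) and 0.18 in Hdac3f/f cells (adjusted p = 0.625), and the test of their difference did not pass (1.46, adjusted p = 0.0517).

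Snx20, a sorting nexin gene 11187 bases from Nod2 on the opposite strand, averaged 268 CPM in Lyz2-Cre cells with LPS, 477 CPM in Hdac3f/f cells with LPS, 113 CPM in untreated Lyz2-Cre cells and 112 CPM in untreated Hdac3f/f cells. It was lower in Lyz2-Cre than in Hdac3f/f cells with LPS (-0.83, edgeR adjusted p = 0.00712), while the difference of its responses did not pass (-0.84, adjusted p = 0.0803). Cyld, which encodes a deubiquitinase that trims the chains built after NOD2 stimulation and lies 8554 bases from Nod2 on the same strand, passed in none of the 5 comparisons (edgeR adjusted p from 0.0632 to 0.88). On the Ripk2 side, Osgin2, 108845 bases away, rose with LPS in Lyz2-Cre (2.15, edgeR adjusted p = 7.4e-07) and Hdac3f/f cells (2.10, adjusted p = 6.75e-07) and had a genotype difference with LPS of 0.15 (adjusted p = 0.535). The transcript A530072M11Rik, on the opposite strand and 463 bases from Ripk2 without overlap, held 124 counts over all libraries, and Gm22690, a miRNA gene inside Ripk2, held 3.

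The rest of the NOD pathway was followed in 7 lists of 90 genes, of which 85 were tested and Slc15a1, Slc46a2, Nlrp6, Nlrp12 and Ripk4 were not. With LPS in Lyz2-Cre cells, 33 of the 85 rose (38.8%, against 25.2% of all tested genes) and 18 fell (21.2%, against 27.7%), so that 60.0% passed in either direction against 52.9%, with a median log2 fold change of 0.23 against -0.08 over all genes. In Hdac3f/f cells 38 rose (44.7%, against 28.0%) and 18 fell (21.2%, against 32.1%), 65.9% in either direction against 60.1%, with a median of 0.26 against -0.08. With library totals in place of TMM these counts became 19 rising and 27 falling in Lyz2-Cre cells and 17 rising and 43 falling in Hdac3f/f cells. Of all 14286 tested genes, 2109 then rose and 6463 fell in Lyz2-Cre cells, and 2086 rose and 8242 fell in Hdac3f/f cells. The division between rises and falls thus depends on the scaling, for the pathway genes and for all tested genes.

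Of 15 ubiquitin ligases and adaptors of the RIPK2 complex, 7 rose (46.7%, against 25.2% of all tested genes) and 1 fell (6.67%, against 27.7%) with LPS in Lyz2-Cre cells, and 12 rose (80.0%, against 28.0%) and 1 fell (6.67%, against 32.1%) in Hdac3f/f cells. Birc3, which encodes cIAP2, rose by a log2 fold change of 2.90 in Lyz2-Cre cells and 2.92 in Hdac3f/f cells. Traf2, the adaptor that binds the cIAPs, rose by 1.66 in Lyz2-Cre and 2.44 in Hdac3f/f cells, and Zdhhc5, the enzyme that palmitoylates NOD1 and NOD2, by 1.02 in Lyz2-Cre and 1.27 in Hdac3f/f cells (edgeR adjusted p at most 1.12e-07 for Traf2 in either genotype). Xiap, the ligase that NOD2 signalling depends on, had 0.24 in Lyz2-Cre cells (edgeR adjusted p = 0.373) and -0.16 in Hdac3f/f cells (adjusted p = 0.546) and passed in neither.

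Of 12 inhibitors of NOD signalling, 6 rose in each genotype (50.0%, against 25.2% of all tested genes in Lyz2-Cre and 28.0% in Hdac3f/f cells) and the others did not pass. They included Socs3, a suppressor of cytokine signalling (7.87 in Lyz2-Cre and 8.84 in Hdac3f/f cells), and Tnfaip3, the ubiquitin editor A20 that restrains RIPK2 ubiquitination (4.63 in Lyz2-Cre and 5.19 in Hdac3f/f cells). Of 10 tested genes for transport and processing of the ligands, 1 rose and 3 fell in Lyz2-Cre cells (10.0% and 30.0%), and 2 rose and 3 fell in Hdac3f/f cells (20.0% and 30.0%), against 25.2% and 27.7% of all tested genes in Lyz2-Cre and 28.0% and 32.1% in Hdac3f/f cells. Among them Slc15a3, a transporter that carries muramyl dipeptide out of endosomes, rose by 2.07 in Lyz2-Cre and 3.19 in Hdac3f/f cells, and Slc46a3, also implicated in muramyl peptide transport, fell (-4.91 in Lyz2-Cre and -4.74 in Hdac3f/f cells). Of 13 tested other NOD-like receptors, 3 rose (23.1%) and 7 fell (53.8%, against 27.7% of all tested genes) in Lyz2-Cre cells, and 2 rose (15.4%) and 6 fell (46.2%, against 32.1%) in Hdac3f/f cells. Nlrp3, the inflammasome sensor, rose by 4.83 in Lyz2-Cre and 5.28 in Hdac3f/f cells. Of 13 tested RIP kinases and CARD proteins, 4 rose (30.8%, against 25.2% of all tested genes) and 6 fell (46.2%, against 27.7%) in Lyz2-Cre cells, and 4 rose (30.8%, against 28.0%) and 5 fell (38.5%, against 32.1%) in Hdac3f/f cells, so the rises were near the background in both. Among them Malt1, a paracaspase, rose by 4.55 in Lyz2-Cre and 4.61 in Hdac3f/f cells. Of 10 kinases and adaptors downstream of RIPK2, 4 rose (40.0%, against 25.2%) and 1 fell (10.0%, against 27.7%) in Lyz2-Cre cells, and 4 rose (40.0%, against 28.0%) and 2 fell (20.0%, against 32.1%) in Hdac3f/f cells. Under library totals edgeR no longer called the rises of Mapk8 (adjusted p = 0.129), Ikbkb (adjusted p = 0.369) and Tab2 (adjusted p = 0.523) in Lyz2-Cre cells. The rise of Mapk9 in Hdac3f/f cells also lost its edgeR call (adjusted p = 0.58), while that of Ikbkb there kept it. Of 12 chaperones and cytoskeletal partners of the receptors, 8 rose in Lyz2-Cre cells (66.7%, against 25.2%), and 8 rose (66.7%, against 28.0%) and 1 fell (8.33%, against 32.1%) in Hdac3f/f cells. With library totals in place of TMM, edgeR no longer called Rac1 in Lyz2-Cre cells (adjusted p = 0.259), while Rhoa, Cdc42 and Hsp90aa1 kept their calls. In Hdac3f/f cells it no longer called Rhoa (adjusted p = 0.0582), Hsp90ab1 (adjusted p = 0.0586) and Arhgef2 (adjusted p = 0.349), while Irgm1 kept its call.

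**Figure D5:**
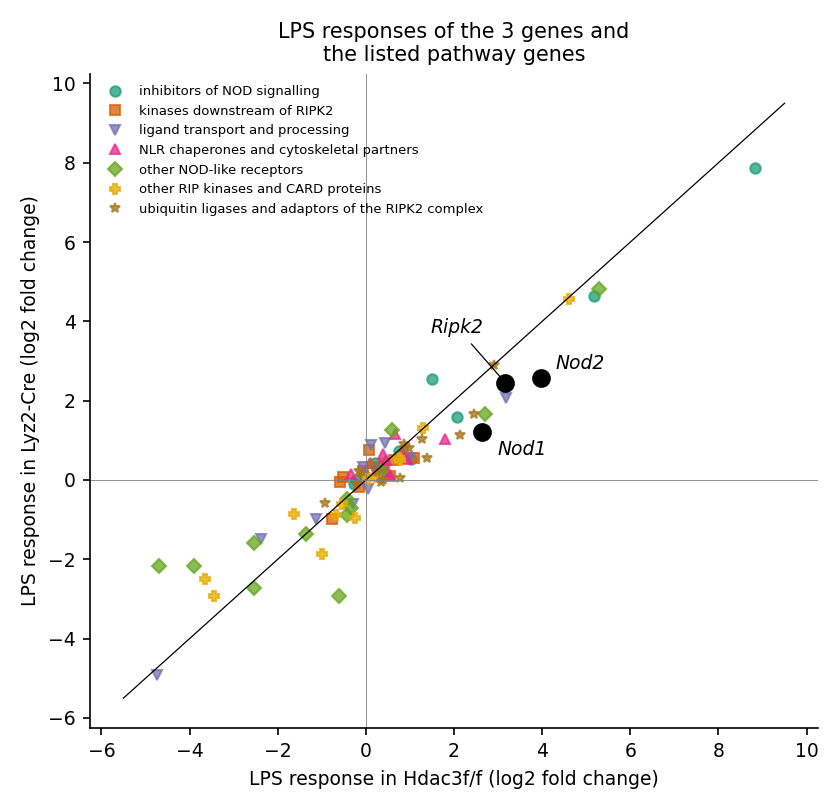
Log2 fold change with LPS in Lyz2-Cre cells (vertical) against that in Hdac3f/f cells (horizontal) for Nod1, Nod2 and Ripk2 (black) and 85 tested pathway genes by list, with the line of equal response. Nod1, Nod2 and Ripk2 lie below the line at 1.21, 2.58 and 2.46 in Lyz2-Cre cells.

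With LPS, 15 of the 85 pathway genes were higher and 16 lower in Lyz2-Cre than in Hdac3f/f cells (17.6% against 15.7% of tested genes for higher, 18.8% against 16.9% for lower, and 36.5% against 32.6% for both), so the share was near the background. Without Hdac3f/f replicate 3 with LPS the total was 20. The count higher was 26 without Hdac3f/f replicate 1 with LPS, and the count lower was 9 without Hdac3f/f replicate 3 with LPS, 9 without Lyz2-Cre replicate 1 with LPS and 10 without Lyz2-Cre replicate 2 with LPS. With library totals 27 were higher and 6 lower, and of all 14286 tested genes 4465 were then higher and 1329 lower.

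The genes named next kept their call without each single library. Rnf31, the catalytic subunit of the linear ubiquitin ligase complex, averaged 219 CPM in Lyz2-Cre and 393 CPM in Hdac3f/f cells with LPS (log2 difference -0.84 ± 0.14, edgeR adjusted p = 0.000923). Traf2 averaged 87.5 CPM in Lyz2-Cre and 140 CPM in Hdac3f/f cells (-0.68 ± 0.11, edgeR adjusted p = 0.00115). Both transporters Slc15a3 (-0.68, edgeR adjusted p = 0.0067) and Slc15a4 (-0.68, adjusted p = 0.00109) were lower in Lyz2-Cre cells. Higher in Lyz2-Cre cells were the kinases Map3k7, which encodes TAK1 (0.90, edgeR adjusted p = 0.0108), Chuk, which encodes IKK alpha (0.81, adjusted p = 0.00541), and Mapk14, which encodes p38 alpha (0.50, adjusted p = 0.00388), and also Itch, a ligase that acts on RIPK2 (0.92 on the log2 scale).

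Without LPS, 10 of the 85 pathway genes differed between the genotypes, 8 higher (9.41%, against 5.12% of all tested genes) and 2 lower (2.35%, against 6.66%) in Lyz2-Cre cells, which is 11.8% in all against 11.8% of all tested genes. The total was 3, 2 and 1 without untreated Lyz2-Cre replicates 1, 2 and 3, and 21, 2 and 2 without untreated Hdac3f/f replicates 1, 2 and 3. It was 5 without Hdac3f/f replicate 3 with LPS, and 5 and 6 without Lyz2-Cre replicates 1 and 2 with LPS. Lyz1, a lysozyme that cuts peptidoglycan, kept its call without each library (1.31 ± 0.28, edgeR adjusted p = 0.011), but its reads may be shared with its close paralog Lyz2, which carries Cre.

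The LPS response differed between the genotypes for 10 of the 85 genes (11.8%, against 8.12% of all tested genes), 3 with a higher (3.53%, against 2.58%) and 7 with a lower (8.24%, against 5.54%) response in Lyz2-Cre cells. The total was 6, 6 and 5 without untreated Lyz2-Cre replicates 1, 2 and 3, and 4 and 6 without untreated Hdac3f/f replicates 2 and 3. It was 16 and 3 without Hdac3f/f replicates 1 and 3 with LPS, and 3 and 5 without Lyz2-Cre replicates 1 and 2 with LPS. Rnf31 (-1.0 ± 0.19, edgeR adjusted p = 0.00787), Slc15a3 (-1.12 ± 0.22, adjusted p = 0.00958) and Ciita, the transactivator of MHC class II genes (-2.32 ± 0.31, adjusted p = 0.00131), kept their call without each library. Beside them, the log2 values of -1.44 for Nod1, -1.39 for Nod2 and -0.70 for Ripk2 have the same sign. With TMM the negative sign is also the more common one among all called genes (5.54% against 2.58%). With library totals the positive sign is the more common one, at 1134 genes against 448. The 3 pathway genes called with a positive sign with TMM were Nlrp1b (2.51), Mapk14 (0.54) and Atg5 (0.48). Nothing is read from the shared sign. Traf2 (-0.78, edgeR adjusted p = 0.0128) had an adjusted p of 0.052 without Hdac3f/f replicate 3 with LPS and 0.0561 without Lyz2-Cre replicate 1 with LPS.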

How the data were processed

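RNA sequencing of 12 libraries gave the values. The authors deposited counts per gene, whole numbers, and FPKM values; per the submitters' processing notes the tools include TopHat2 and the build is mm10, while the counting tool, strand setting and annotation release are not given in the sources used here. The deposited log2 ratios of the genotypes come from the authors, and their deposited p-values and normalized group means (a signal scaled by the authors) were not used. Of the authors' gene identifiers, 54409 are in GENCODE M21, and 53462 of them (98.3%) have the same coordinates there. Genes were kept by filterByExpr and scaled by TMM in edgeR 4.0.16 under R 4.3.3, with TMM factors of 0.716 to 1.26. One quasi-likelihood model with a coefficient for each group of 3 libraries gave 5 comparisons, with Benjamini-Hochberg adjustment over all tested genes, and a gene was called at an adjusted p under 0.05. The procedure was tested on simulated data in which few genes changed, all in LPS-treated Lyz2-Cre libraries, so that test does not examine the dependence on scaling. Nod1, Nod2, Ripk2 and the gene lists were chosen with earlier results of these data known, so Nod1, Nod2 and Ripk2 have no p-value. The named pathway genes are up to 4 called genes of lowest adjusted p in each list and comparison with at least 5 CPM, and Xiap was named outside that rule after its values were seen. The nearest genes are the 4 of smallest root mean square difference (log2 CPM, prior count 2), and neighbours are the 2 nearest tested genes on each side. Alternatives were no filter, DESeq2 1.42.0 size factors or test, library totals, only the groups compared, a replicate block, and each library left out. Replicate numbers were taken as not pairing the libraries, and the labels used here give no batch. A few listed or nearest genes are not reported here.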

Additional observations from a re-analysis of the deposited data

Results flagged for a closer look

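Nod1 and Nod2 differed between genotypes in opposite directions under the 2 treatments. With LPS the log2 difference, Lyz2-Cre minus Hdac3f/f, was -1.14 for Nod1 and -0.67 for Nod2, and without LPS it was 0.29 for Nod1 and 0.72 for Nod2. In TMM-scaled CPM the libraries did not overlap in either case, but with library totals the untreated genotypes overlap for Nod1. The difference was not tested, because both genes were chosen with these values known. Among pathway genes and neighbours, the test of the difference between LPS responses (Lyz2-Cre minus Hdac3f/f, edgeR) passed for Ciita (-2.32, adjusted p = 0.00131), Rnf31 (-1.0, adjusted p = 0.00787), Slc15a3 (-1.12, adjusted p = 0.00958), Traf2 (-0.78, adjusted p = 0.0128) and Nlrp1b (2.51, adjusted p = 0.0213), of which Nlrp1b has a close paralog that may share its reads. It also passed for Ggct (-0.77, adjusted p = 0.027), the adaptor Pycard (-0.71, adjusted p = 0.0276), Nlrc5 (-1.05, adjusted p = 0.0289), the autophagy gene Atg16l1 (-0.50, adjusted p = 0.0289), Mapk14 (0.54, adjusted p = 0.0406) and the autophagy gene Atg5 (0.48, adjusted p = 0.0491), all by edgeR. Nlrp1b, Pycard, Nlrc5, Atg16l1, Mapk14 and Atg5 each lost this call without at least 5 of the 12 libraries taken singly. With library totals in place of TMM, edgeR no longer called Atg16l1 (adjusted p = 0.237), Nlrc5 (adjusted p = 0.132) and Pycard (adjusted p = 0.11). The call of Ggct was not examined under library totals or with libraries left out.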

How the results depend on the processing

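The 15 differences of Nod1, Nod2 and Ripk2 kept their sign under every alternative run, and library totals moved 12 of them by more than the spread between replicates. With library totals the LPS response in Lyz2-Cre cells was 0.82 for Nod1, 2.19 for Nod2 and 2.07 for Ripk2, and in Hdac3f/f cells 2.0, 3.32 and 2.52 in that order of genes. The genotype difference with LPS was then -0.87, -0.40 and -0.25, and the difference of the responses -1.18, -1.13 and -0.45. This scaling moved the median of all tested genes to -0.46 for the LPS response of Lyz2-Cre cells, -0.72 for that of Hdac3f/f cells, 0.29 for the genotype difference with LPS, 0.05 without LPS and 0.27 for the difference of the responses. For pathway genes, library totals gave 19 rising in Lyz2-Cre cells, 17 rising and 43 falling in Hdac3f/f cells, 27 higher and 6 lower between genotypes with LPS, 5 higher without LPS, and 7 higher and 4 lower in the difference of the responses. Over all 14286 tested genes they gave 2109 rising in Lyz2-Cre cells, and 2086 rising and 8242 falling in Hdac3f/f cells. Between genotypes 4465 were higher and 1329 lower with LPS, and 627 higher without. In the difference of the responses 1134 were higher and 448 lower. Arhgef2 (-0.095) and Mapk9 (-0.084) then changed sign in the LPS response of Hdac3f/f cells. The DESeq2 test gave 19 pathway genes for the difference of the responses, 5 higher and 14 lower. Without the filter 17 differed between genotypes without LPS, 5 of them lower, and with only the groups compared 4 were lower. Leaving out single libraries gave 20 to 44 pathway genes between genotypes with LPS (11 to 26 higher, 9 to 18 lower), 1 to 21 without LPS (1 to 17 higher, 0 to 4 lower) and 3 to 16 for the difference of the responses (0 to 8 higher, 3 to 9 lower). Of 101 calls of named genes, 78 held without each single library. Same-numbered libraries did not deviate together (18 pairs, correlations of -0.40 to 0.22, 5 over 0.1). The fit with a replicate block gave -1.14 for Nod1 and 35 pathway genes between genotypes with LPS, and it ended the calls of Socs3 (adjusted p = 0.0503) and Card6 (adjusted p = 0.0546) there and of Atg5 (adjusted p = 0.0641) in the difference of the responses, by edgeR. The causes were not tested. The untreated values rest on 171 to 342 counts for Nod2 and 115 to 191 counts for Ripk2.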
